A study of Mus musculus with 8 samples.

Results

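The genes described here encode the proteins of the cytosolic ribosome. They were taken from the deposited gene table by symbol, as protein-coding rows named Rps or Rpl followed by a number, together with Rpsa, Rplp0, Rplp1 and Rplp2, and kinases or binding proteins with similar symbols were left out. The rule found 84 genes among 54532 rows, 32 of the small subunit and 52 of the large subunit. It goes by symbol, so Fau, which encodes a ribosomal protein fused to a ubiquitin-like domain, lies outside it and is given separately.

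The series addressed growth retardation in a mouse model of Mowat-Wilson syndrome. RNA of the duodenum was sequenced from Zeb2+/- mice, which carry a global heterozygous knockout of Zeb2, and from WT mice (Zeb2+/+), with 4 libraries of each genotype. Strain, age, sex, and whether a library held RNA of a single animal are not stated in the labels, so p-values measure the spread between these libraries, which may be technical. Zeb2 encodes a zinc-finger transcriptional repressor that binds SMAD proteins.

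The cytosolic ribosome is built from a small subunit, which reads the mRNA, and a large subunit, which joins amino acids. Its proteins are made in near-equal numbers, and their mRNAs are among the most abundant in cells that grow or secrete, including those of the intestinal crypt. In mammals most of these mRNAs begin with a C followed by a run of pyrimidines, the 5' terminal oligopyrimidine (TOP) motif, through which mTORC1 and LARP1 control their translation.

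Between 13579347 and 17137417 reads per library had been assigned to genes. Pearson correlations of log2(FPKM + 1) were 0.902 to 0.971 among the Zeb2+/- libraries and 0.972 to 0.981 among the WT libraries, over the 12190 genes with a mean of at least 1 FPKM (fragments per kilobase and per unit of library size) that were tested. Zeb2 averaged 0.301 ± 0.146 FPKM in Zeb2+/- and 0.943 ± 0.192 FPKM in WT (SD, n = 4 each), with every Zeb2+/- library below every WT library (exact two-sided permutation p = 0.0286, the smallest that 4 against 4 allows). The labelled tissue carried duodenal markers in both genotypes: the transcription factor Pdx1 averaged 8.64 FPKM in Zeb2+/- and 11.5 FPKM in WT, and the enterocyte lipoprotein Apoa1 averaged 9010 FPKM in Zeb2+/- and 7998 FPKM in WT. Of 20 pancreatic acinar markers 18 were lower in Zeb2+/-, as were 10 of 11 Paneth cell markers (limma, adjusted p below 0.05), beside 1 of 20 and 10 of 11 by voom. In bulk tissue, fewer cells of a type and less RNA per cell cannot be told apart.

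Start sites were available for 64 of the 84 genes, in 76 windows of 300 bases (RefSeq, build GRCm38.p6). The sequences below are the 15 bases before and the 15 bases from the annotated start of members among those with the smallest p-values for which a window was found, because they show the pyrimidine run that marks these mRNAs and how it varies. Capitals mark the longest uninterrupted run of C and T, and where RefSeq lists several starts the one with the longest run is shown.
Rpl41 (chr10:128549154-128549183, minus strand): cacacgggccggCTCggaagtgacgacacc
Rplp2 (chr7:141447636-141447665, plus strand): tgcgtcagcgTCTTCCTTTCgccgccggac
Rps24 (chr14:24490663-24490692, plus strand): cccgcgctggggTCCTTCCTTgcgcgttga
Rpl35a (chr16:33056467-33056496, plus strand): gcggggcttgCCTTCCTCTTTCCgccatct
Rps15 (chr10:80292416-80292445, plus strand): CCCggcagagctcgcgataactgcgcaagc
Rpl38 (chr11:114668565-114668594, plus strand): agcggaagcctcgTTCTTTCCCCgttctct
Rpl34 (chr3:130730323-130730352, minus strand): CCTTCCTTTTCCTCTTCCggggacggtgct
Rpl13a (chr7:45128731-45128760, minus strand): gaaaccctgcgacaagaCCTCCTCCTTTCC

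The longest run measured 18 bases in Rpl34, 13 in Rpl35a and Rpl13a, 10 in Rplp2 and Rpl38, and 9 in Rps24, whereas the windows of Rpl41 and Rps15 held no run longer than 3. A run of at least 8 C or T within the 30 bases stood in 36.8% of the 76 windows of ribosomal protein genes, against 12.0% of all 32851 windows of the table. The motif CCGGAAG, read on both strands of the whole 300 bases, stood in 35.5% of the windows of ribosomal protein genes, against 8.86% of all windows. The motif ATGGCGG, read the same way, stood in 18.4%, against 4.05% of all windows. Annotated starts can lie some bases away from the true ones, and a match or its absence describes these letters only.

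Of the 84 ribosomal protein genes, 80 passed the minimum of 1 FPKM. Their mean levels ran from 1.66 to 1223 FPKM with a median of 123.8 FPKM, and 68 of the 80 exceeded 50 FPKM. The deposited length of a gene is the union of its exons, a median of 2.84 times the shortest coding transcript and up to 25.1 times, so FPKM understates genes with long rare exons. The ratio of 25.1 rests on a shortest transcript of 250 bases, so these ratios do not measure how far FPKM is understated. The members of highest FPKM were Rplp1, Rps3a1 and Rplp0. Rplp1, an acidic protein of the stalk that recruits elongation factors to the large subunit, stood at 1930, 1413, 1135 and 1296 FPKM in Zeb2+/- libraries 1 to 4, against 919, 1057, 867 and 1167 FPKM in WT libraries 1 to 4. The libraries overlapped, since WT library 4 lay above Zeb2+/- library 3. Rps3a1, a small subunit protein, stood at 1628, 793, 872 and 788 FPKM in Zeb2+/-, against 613, 653, 522 and 729 FPKM in WT. Here the groups did not overlap, and Zeb2+/- library 1 lay far above the other libraries of its genotype.

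No ribosomal protein gene passed the test of Zeb2+/- against WT in limma (Benjamini-Hochberg adjusted over all 12190 genes, threshold 0.05), beside 0.468% of all genes called higher and 2.77% called lower. At an unadjusted p below 0.05, 27 of the 80 were higher and 0 were lower, beside 10.0% of all genes higher and 8.91% lower. Among the 1126 other genes with a mean of at least 50 FPKM, 16.3% were higher at that threshold. Limma voom on the rebuilt reads also called 0 of the 80, with 5 higher at an unadjusted p below 0.05, beside 6.40% of all genes, so the excess over all genes in limma was not seen with voom. The log2 fold change was above 0 for 77 of the 80, with a median of 0.34, a range of -0.19 to 0.99 and limma SE of 0.10 to 0.38. Over all genes tested the median was 0.00, with 6126 of 12190 above 0, and over the 1126 other genes with a mean of at least 50 FPKM it was 0.06. In 19 of the 80, every Zeb2+/- library lay above every WT library, and in 0 every Zeb2+/- library lay below. Such a position above WT held for 7.65% of all genes and for 165 of the 1126 other genes with a mean of at least 50 FPKM. Overlap between libraries is given throughout on the deposited FPKM only. It was not examined under other scalings of the libraries, which can change it.

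**Figure D1:**
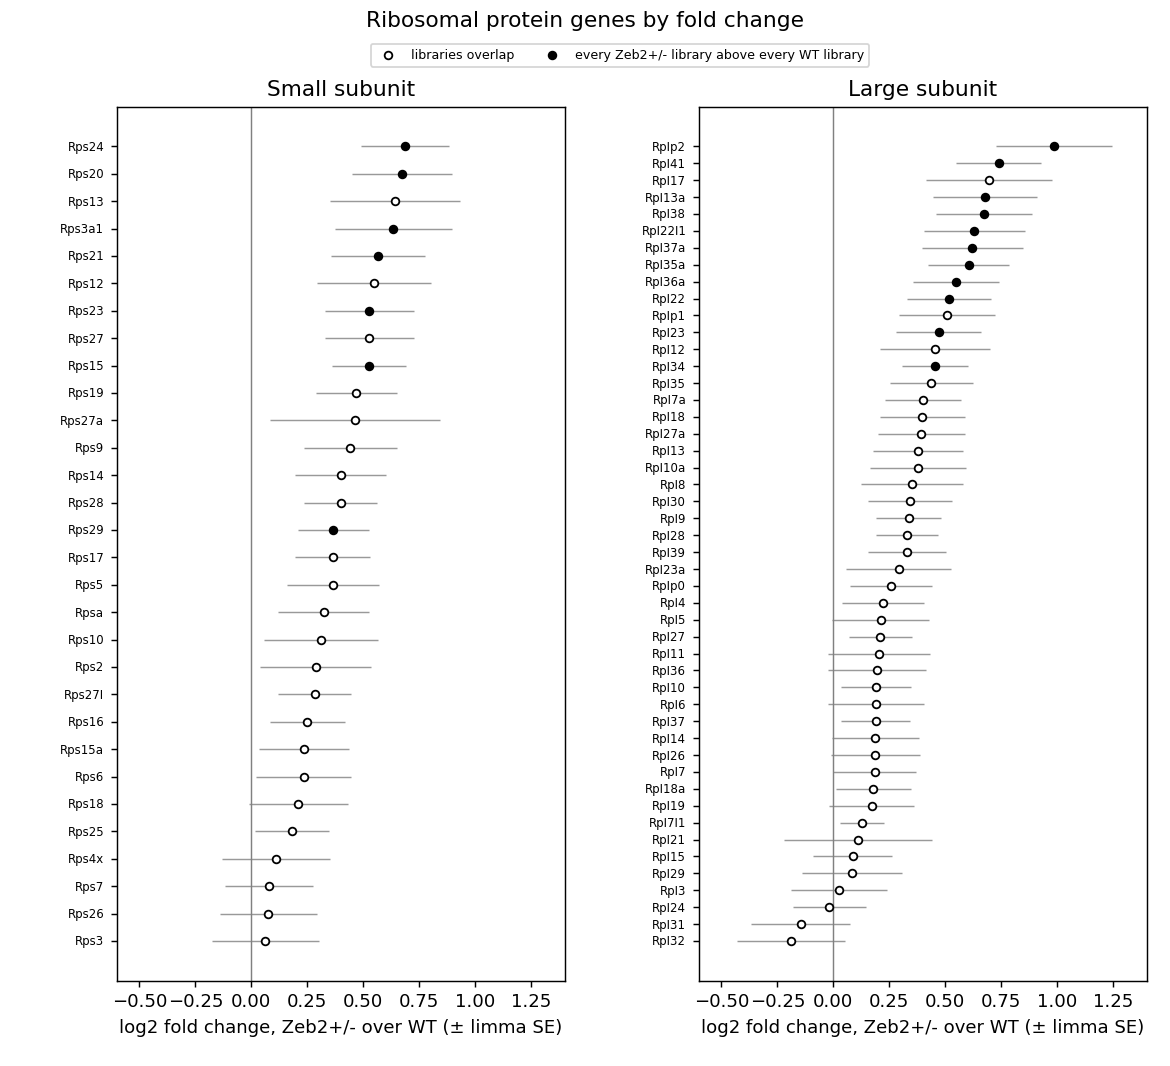
Log2 fold change of Zeb2+/- over WT on the log2(FPKM + 1) scale for 78 of the 80 tested ribosomal protein genes, ordered by value within each subunit, with limma SE as bars. Filled points mark the 18 genes shown in which every Zeb2+/- library exceeded every WT library, and the points run from -0.19 to 0.99.

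The minimum of 1 FPKM was passed by 32 of 32 small subunit genes and 48 of 52 large subunit genes, some of them, such as Rps10 and Rpl24, only narrowly. All 32 small subunit genes had a log2 fold change above 0, with a median of 0.36, a range of 0.06 to 0.69 and 10 at an unadjusted p below 0.05. Of the 48 tested large subunit genes 45 were above 0, with a median of 0.33 and 17 at an unadjusted p below 0.05. The summed level of the 84 genes was 12093 to 20137 FPKM in Zeb2+/- libraries and 10601 to 13397 FPKM in WT libraries.

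The libraries of a genotype were not alike. Taken as the difference of log2(FPKM + 1) from each gene's WT mean, the median over the 80 genes was 0.71, 0.38, 0.02 and 0.26 in Zeb2+/- libraries 1 to 4, against -0.06, 0.06, -0.18 and 0.17 in WT libraries 1 to 4. Zeb2+/- library 3 thus lay within the WT range, and WT library 4 lay close to Zeb2+/- library 4. Zeb2+/- library 1 was the highest of all 8 in 64 of the 80 genes. The lowest of the 8 was WT library 3 in 44 genes and Zeb2+/- library 3 in 25. The SD between libraries had a median of 0.36 in Zeb2+/- and 0.17 in WT on the log2 scale, and was wider in Zeb2+/- in 73 of the 80 genes (91.3%), beside 82.9% of all genes and 91.0% of all genes with a mean of at least 50 FPKM.

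**Figure D2:**
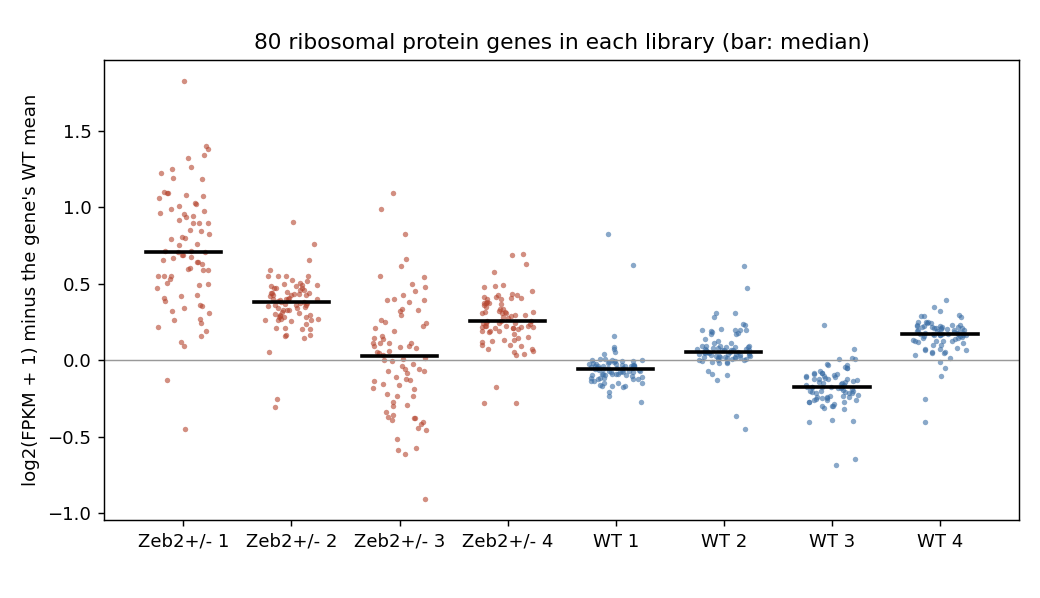
Difference of log2(FPKM + 1) from each gene's WT mean, 1 point per ribosomal protein gene and library, with the library median as a bar. The medians are 0.71, 0.38, 0.02 and 0.26 in Zeb2+/- libraries 1 to 4 and -0.06, 0.06, -0.18 and 0.17 in WT libraries 1 to 4.

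As a share of reads, the 84 genes took 3.85%, 2.16%, 1.43% and 2.19% in Zeb2+/- libraries 1 to 4, against 1.85%, 1.96%, 1.42% and 2.05% in WT libraries 1 to 4. The means were 2.41 ± 1.02% in Zeb2+/- and 1.82 ± 0.279% in WT (SD, n = 4 each), so the difference was smaller than the spread in Zeb2+/-. Without Zeb2+/- library 1 the difference in means was 0.111 percentage points, against 0.592 with it. The scale of the deposited FPKM bears on this, since the library total they imply was 0.733 to 1.16 times the sum of rebuilt reads, with the extremes in Zeb2+/- library 3 and Zeb2+/- library 1. With rebuilt reads per kilobase scaled by their own library sum, the library medians of the 80 genes were 1.06, 0.27, -0.26 and 0.28 in Zeb2+/- libraries 1 to 4, against 0.03, 0.12, -0.35 and 0.19 in WT libraries 1 to 4. On that scale Zeb2+/- library 3 lay below 3 of the WT libraries, and 3 genes of the 80 were higher at an unadjusted p below 0.05 in place of 27, beside 6.92% of all genes on that scale.

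**Figure D3:**
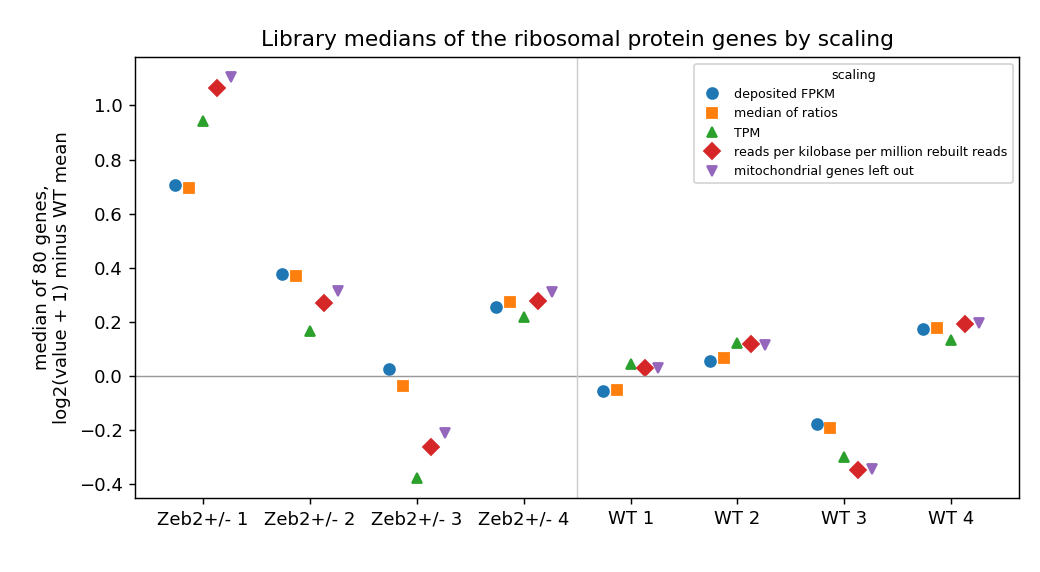
Median over the 80 ribosomal protein genes of log2(value + 1) minus the WT mean, by library, under the deposited FPKM and 4 other scalings. Zeb2+/- library 1 is highest under each, and Zeb2+/- library 3 runs from 0.02 with the deposited FPKM to -0.38 with TPM.

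Other quantities differed between the same libraries. The mean score of 20 enterocyte markers (log2 difference from WT, 0 of 20 called by limma or voom and 0 at an unadjusted p below 0.05 in limma) was -0.95, 0.11, 0.47 and -0.02 in Zeb2+/- libraries 1 to 4, against -0.15, -0.09, 0.29 and -0.05 in WT libraries 1 to 4. Within each genotype the library with the highest enterocyte score, the third, had the lowest median of ribosomal protein genes, and Zeb2+/- library 1 had the lowest enterocyte score and the highest median. In WT this did not hold at the other end, since library 1 had the lowest enterocyte score and the second-lowest median, and library 4 had the highest median. The summed enterocyte markers were 22135 to 61808 FPKM in Zeb2+/- and 33170 to 47312 FPKM in WT, with none of the 20 at 0 in all libraries. Scores of 17 tested proliferating crypt markers were 0.32, 0.00, -0.63 and 0.18 in Zeb2+/-, against 0.04, -0.03, -0.08 and 0.07 in WT. Their summed levels were 165 to 322 FPKM in Zeb2+/- and 297 to 358 FPKM in WT. The median log2 fold change was -0.04, with 11 of 17 below 0, and 1 was higher and 2 lower in limma at an unadjusted p below 0.05. Limma called 1 of 17 higher, beside 0.468% of all genes, and voom 0 (Birc5, an inhibitor of apoptosis needed for cell division). Smooth muscle markers scored 1.32, 0.19, 0.87 and 0.27 in Zeb2+/-, against 0.02, 0.00, -0.15 and 0.13 in WT, with 1 of 11 called higher by limma and 0 by voom (Hspb6, a heat shock protein that binds actin in smooth muscle) and summed levels of 402 to 996 FPKM in Zeb2+/- and 309 to 411 FPKM in WT. All 5 tested enteric neuron and glia markers had a log2 fold change above 0 (median 0.58), with 0 called by limma or voom. Limma called 3 of 11 T cell markers and 2 of 12 plasma and B cell markers lower, and voom 2 and 1. Of these lists, 2 T cell markers and 5 plasma and B cell markers had a log2 fold change above 0. Many endothelial, fibroblast and macrophage markers were called lower in Zeb2+/-, beside 2.77% of all genes in limma. They were 8 of 9 endothelial markers in limma and 7 with voom, 7 of 12 fibroblast markers and 5 with voom, and 7 of 11 macrophage markers and 5 with voom. Their summed levels were 6.90 to 14.5 FPKM in Zeb2+/- and 30.9 to 37.9 FPKM in WT for endothelial markers, 115 to 149 FPKM in Zeb2+/- and 187 to 241 FPKM in WT for fibroblast markers, and 17.8 to 59.0 FPKM in Zeb2+/- and 133 to 150.4 FPKM in WT for macrophage markers. The mitochondrially encoded genes took 7.98 ± 0.626% of reads in Zeb2+/- and 5.21 ± 0.252% in WT (SD, n = 4 each). Of 13 tested, limma called 0, and voom called 5 higher, beside 15 of 12190 genes called higher by voom. At an unadjusted p below 0.05, 6 were higher in limma (beside 10.0% of all genes) and 11 with voom (beside 6.40%). The part of these quantities in the values of the ribosomal protein genes was not tested.

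Among large subunit genes the smallest p belonged to Rpl41 and Rplp2. Rpl41, which encodes the very short basic peptide of the large subunit, stood at 670.6, 461.5, 448.5 and 410.1 FPKM in Zeb2+/- libraries 1 to 4, against 288.2, 334.7, 277.6 and 272.5 FPKM in WT libraries 1 to 4. All 4 Zeb2+/- libraries lay above all 4 WT libraries. The log2 fold change was 0.74 (SE 0.19, limma adjusted p = 0.0804). Rplp2, the partner of Rplp1 in the stalk, stood at 252.4, 106.2, 125.3 and 114.7 FPKM in Zeb2+/-, against 67.8, 75.1, 65.9 and 72.8 FPKM in WT. The groups did not overlap, and Zeb2+/- library 1 was more than 100 FPKM above the others of its genotype. Rplp2 had the highest log2 fold change of the 80, at 0.99 (SE 0.26, limma adjusted p = 0.0881). The third stalk protein, Rplp0, which anchors the acidic pair, had 0.26 (531 ± 100 FPKM in Zeb2+/- and 439 ± 29.5 FPKM in WT, SD, n = 4 each), and Rplp1 had 0.51 (limma adjusted p = 0.250).

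Whether these genes passed the threshold changed with the weight given to single libraries. Without Zeb2+/- library 1, Rpl41 (0.59, limma adjusted p = 0.0447) and Rplp2 (0.70, limma adjusted p = 0.0112) passed the threshold, 2 of 80 where 0.812% of all genes were called higher. Without Zeb2+/- libraries 1 and 3, 1 of 80 passed, Rplp2 at 0.64 (limma adjusted p = 0.0262), where 0.377% of all genes were called higher. With limma array weights, which gave Zeb2+/- libraries 1 and 3 the lowest weights (0.211 and 0.274, against 0.745 to 3.36 for the other libraries), 9 of the 80 passed, where 4.04% of all genes were called higher. Rpl35a, Rpl41, Rplp2, Rps15, Rps20 and Rps27 were among them.

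The other large subunit genes with the smallest p were Rpl35a, Rpl38, Rpl34, Rpl13a, Rpl36a and Rpl22l1. Rpl35a stood at 46.8, 28.0, 33.5 and 34.3 FPKM in Zeb2+/-, against 20.3, 26.2, 19.0 and 26.1 FPKM in WT. The groups did not overlap, although Zeb2+/- library 2 exceeded the highest WT library by little (log2 fold change 0.61, SE 0.18, limma adjusted p = 0.122). Rpl38, known in mouse embryos for its part in the translation of Hox mRNAs, averaged 103.7 ± 30.9 FPKM in Zeb2+/- and 63.4 ± 10.7 FPKM in WT (SD, n = 4 each, log2 fold change 0.67). Rpl34 averaged 71.4 ± 8.69 FPKM in Zeb2+/- and 51.9 ± 6.97 FPKM in WT, and was less affected by a single library than the others, at 82.9, 72.0, 62.1 and 68.8 FPKM in Zeb2+/-, against 48.8, 58.6, 43.6 and 56.5 FPKM in WT. On the deposited FPKM, all of these 6 genes had no overlap between the groups, with limma adjusted p from 0.122 to 0.185.

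Of the small subunit genes, Rps24, Rps15, Rps20, Rps21, Rps27, Rps23, Rps19 and Rps28 had the smallest p, with limma adjusted p from 0.109 to 0.231. Rps24, whose human gene is mutated in some patients with Diamond-Blackfan anaemia, stood at 90.0, 56.6, 57.7 and 55.1 FPKM in Zeb2+/-, against 37.3, 44.8, 31.1 and 44.6 FPKM in WT. All Zeb2+/- libraries exceeded all WT libraries, and library 1 stood apart from libraries 2 to 4, which lay within 3 FPKM of one another (log2 fold change 0.69, SE 0.20, limma adjusted p = 0.109). Rps15 stood at 568.0, 428.8, 416.1 and 420.3 FPKM in Zeb2+/-, against 303.4, 341.2, 281.8 and 338.3 FPKM in WT. Its groups did not overlap either (log2 fold change 0.53, SE 0.17, limma adjusted p = 0.141). Rps20 (97.6 ± 34.9 FPKM in Zeb2+/- and 58.7 ± 6.92 FPKM in WT), Rps21 (125.0 ± 34.9 FPKM in Zeb2+/- and 82.8 ± 13.8 FPKM in WT) and Rps23, a protein of the decoding centre (221.3 ± 64.7 FPKM in Zeb2+/- and 149.3 ± 11.4 FPKM in WT), had no overlap (SD, n = 4 each). In Rps19 and Rps28 a Zeb2+/- library lay below a WT library. Rps19, the gene most often mutated in Diamond-Blackfan anaemia, stood at 73.9, 51.9, 43.8 and 52.5 FPKM in Zeb2+/-, against 35.4, 44.1, 33.9 and 44.2 FPKM in WT.

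**Figure D4:**
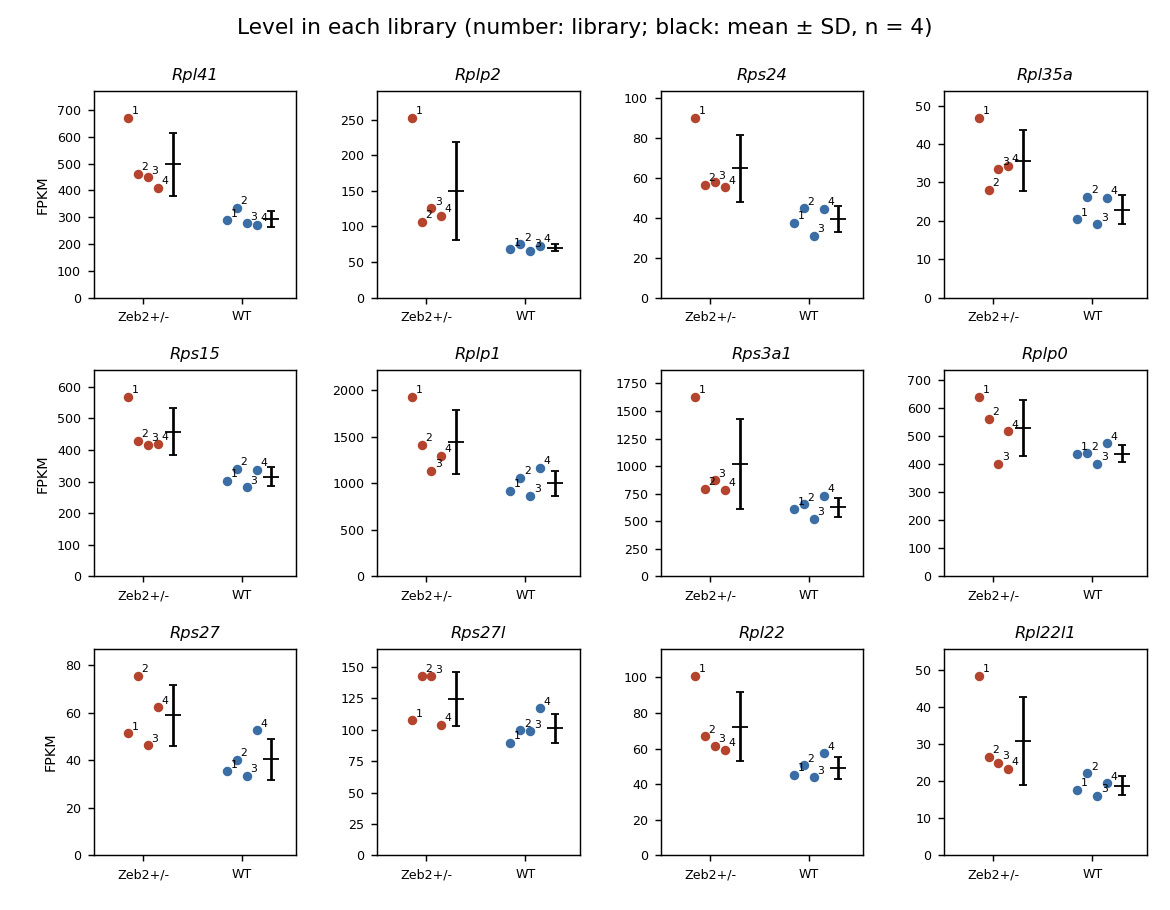
FPKM of 12 ribosomal protein genes in each library, with the library number beside each point and the mean ± SD (n = 4) of each genotype in black. Zeb2+/- library 1 is the highest point in each panel except Rps27 and Rps27l, in which Zeb2+/- library 2 is.

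A log2 fold change below 0 was found in 3 large subunit genes, each far from the threshold. They were Rpl32 at -0.19 and Rpl31 at -0.15, both named after their values were seen, and Rpl24 at -0.02. Rpl32 averaged 220.3 FPKM in Zeb2+/- and 241.9 FPKM in WT, and Rpl31 averaged 123.1 FPKM in Zeb2+/- and 132.1 FPKM in WT (limma adjusted p of 0.729 and 0.778). Rpl5 and Rpl11, which with 5S rRNA form the particle that can bind Mdm2 and stabilise p53, lay in the lower part of the order. Rpl5 stood at 163.9, 141.1, 82.9 and 128.1 FPKM in Zeb2+/-, against 105.5, 111.3, 93.3 and 124.0 FPKM in WT. Zeb2+/- library 3 was the lowest of the 8 and library 1 the highest. Rpl5 had a log2 fold change of 0.21 and Rpl11 of 0.20 (limma adjusted p of 0.652 and 0.686).

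Paralogs of ribosomal proteins were compared with their parent genes. Rpl22l1, whose expression Rpl22 is known to restrain in the mouse, averaged 30.8 ± 11.8 FPKM in Zeb2+/- and 18.8 ± 2.56 FPKM in WT, and Rpl22 averaged 72.2 ± 19.4 FPKM in Zeb2+/- and 49.2 ± 6.13 FPKM in WT (SD, n = 4 each). Their log2 fold changes were 0.63 and 0.52 (limma adjusted p of 0.185 and 0.190), and neither pair of groups overlapped. Rps27l, a p53 target, stood at 107.3, 142.9, 142.4 and 103.7 FPKM in Zeb2+/-, against 89.5, 99.4, 98.6 and 116.9 FPKM in WT. Its libraries took another order from that of most members, with Zeb2+/- libraries 2 and 3 highest (log2 fold change 0.28, limma adjusted p = 0.395). Its parent Rps27 stood at 51.3, 75.5, 46.2 and 62.2 FPKM in Zeb2+/-, against 35.3, 40.3, 33.5 and 52.6 FPKM in WT (log2 fold change 0.53, limma adjusted p = 0.202). In both, WT library 4 lay above at least 1 Zeb2+/- library. Rpl7l1 had a log2 fold change of 0.13 beside 0.19 for Rpl7, with 20.7 ± 1.03 FPKM in Zeb2+/- and 18.9 ± 1.01 FPKM in WT for the paralog.

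In all, 4 paralogs lay below the FPKM minimum and were not tested. Rpl10l, which takes the place of the X-linked Rpl10 in the male germline of the mouse, was at 0 reads in every library. Rpl39l, known from the testis, was at 0, 0, 0 and 0.281 FPKM in Zeb2+/-, against 0.0798, 0, 0.277 and 0.167 FPKM in WT, and Rpl3l, known from heart and skeletal muscle, was at 0.196, 0, 0.0510 and 0 FPKM in Zeb2+/-, against 0, 0.0378, 0 and 0 FPKM in WT. Rpl36al averaged 0.621 FPKM in Zeb2+/- and 0.637 FPKM in WT. These values rest on few reads, and their parents stood far higher, with Rpl3 at 150.3 ± 38.7 FPKM in Zeb2+/- and 143.9 ± 13.3 FPKM in WT (SD, n = 4 each, log2 fold change 0.03).

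Many members share sequence with near-identical copies, which adds uncertainty to their level. Of the 84 genes, 60 have rows named as their pseudogenes, 296 rows in all, and 76 share at least 1 window of 100 bases with a transcript of another gene in GENCODE M21. In this paragraph pseudogenes are taken by name alone, and not all of these rows are classed as pseudogenes in the deposited annotation. The median share of windows was 22.5%, and in 16 genes it exceeded a share of 50%. In 12 families over 10% of the family's reads, rebuilt from FPKM, were counted on rows named as pseudogenes, and in 3 over 50%. Rps10, a small subunit protein of the mRNA entry side and the lowest of the tested genes, had 94.3% of its family's reads on pseudogenes. Of its windows of 100 bases only 22.2% were shared, and the source of its low level was not tested. Rps10 itself stood at 3.51, 1.57, 1.09 and 1.72 FPKM in Zeb2+/-, against 1.12, 1.64, 0.730 and 1.86 FPKM in WT, whereas Rps10-ps2 averaged 123.0 FPKM over the 8 libraries. For Rpl17 the share was 69.5% and for Rpl21 56.7%, both named after their values were seen. For Rpl21 the share on pseudogenes was 49.1%, 67.9%, 49.4% and 65.2% in Zeb2+/- libraries 1 to 4, against 44.9%, 68.2%, 48.3% and 70.9% in WT libraries 1 to 4. Libraries 2 and 4 of both genotypes thus stood apart from libraries 1 and 3. The handling of reads with several matches is not stated in the labels.

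**Figure D5:**
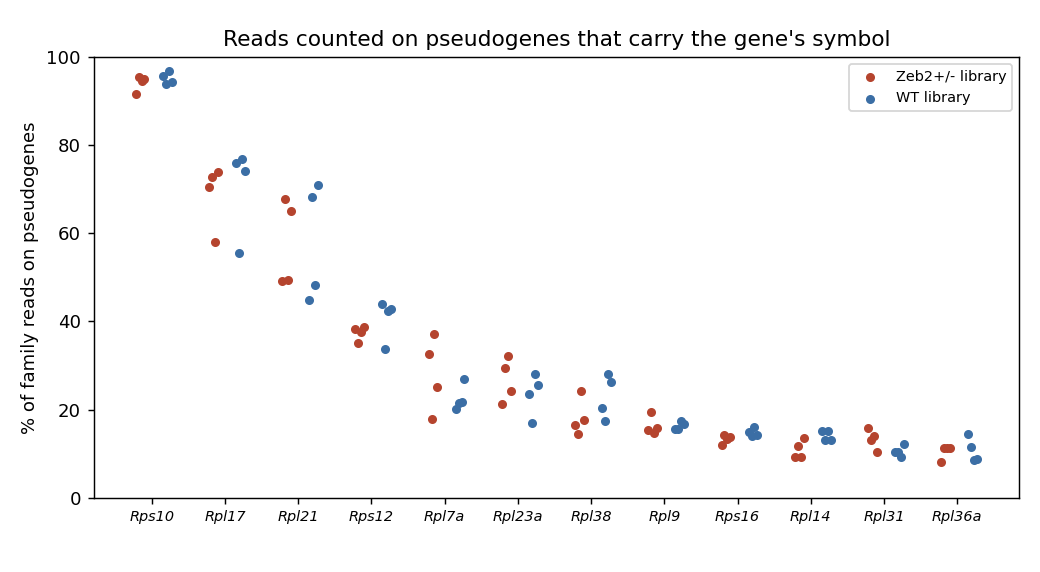
Share of a family's reads counted on rows named as pseudogenes of the gene, whatever their class, for the 12 families above 10%, 1 point per library. Rps10 lies above 90% in every library, and in Rpl21 each genotype splits into libraries near 50% and libraries near 70%.

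Another annotated gene overlaps 6 members on the same strand, and the overlapping gene had 0 reads in all 8 libraries in each case. These include Rpl13a with Gm45713, Rpl24 with Gm28037 and Rps10 with RPS10-NUDT3, which are the 3 lowest of the tested genes. They also include Rpl19 with Gm11629 and Rpl13 with Gm20388, which averaged 260.3 and 224.9 FPKM over the 8 libraries and were named after their values were seen. Rpl36al with Gm49383 is also among the 6 and lay below the FPKM minimum. Whether reads in the shared spans went uncounted, and the part of this in the low levels, were not tested. Rpl13a averaged 12.9 ± 5.34 FPKM in Zeb2+/- and 7.31 ± 1.07 FPKM in WT, and Rpl24 averaged 3.08 ± 0.808 FPKM in Zeb2+/- and 3.09 ± 0.514 FPKM in WT (SD, n = 4 each). On the opposite strand 22 members overlap a gene, Rps10 among them. Small nucleolar RNA genes lie within the span of 30 of the 84 members (35.7%), beside 160 of 10756 other tested protein-coding genes (1.49%).

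Length and level, which set the sampling and the scale of FPKM, differed between the ribosomal protein genes and the rest. The median deposited length was 1776 bases for the members and 3751 bases for all genes tested. Among other genes of the length class from 1000 to 2000 bases the median log2 fold change was 0.14 over 1493 genes, against 0.33 over the 33 members of that class. Below 1000 bases it was 0.05 over 1333 other genes, against 0.44 over 12 members. With a smooth trend on gene length removed within each library, the median of the 80 members was 0.22, with 71 of 80 above 0. By level, members from 50 to 100 FPKM had a median of 0.46 (17 genes) and those above 200 FPKM 0.26 (23 genes), beside 0.08 and 0.02 for other genes of those levels. Members with a run of at least 8 C or T at a listed start had a median log2 fold change of 0.38 (27 genes), and those without it 0.32 (33 genes).

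Genes that work with the ribosome were set beside its proteins. A list of 7 related genes outside the rule held Fau but also copies. Among the copies were Rpl9-ps6, which has a pseudogene symbol, and Rps3a2, whose row is not classed as protein-coding. Of the 7, 0 were called by limma or by voom on rebuilt reads. In limma 3 were higher and 0 lower at an unadjusted p below 0.05, with a median log2 fold change of 0.11. Fau stood at 794.5, 648.8, 830.3 and 680.7 FPKM in Zeb2+/-, against 472.3, 555.0, 537.2 and 569.7 FPKM in WT, without overlap and highest in Zeb2+/- library 3 (log2 fold change 0.46, limma adjusted p = 0.173). Rps3a2 averaged 6.25 FPKM in Zeb2+/- and 3.93 FPKM in WT (log2 fold change 0.52, limma adjusted p = 0.235). Of 24 elongation factors and other genes with TOP mRNAs 0 were called, by either tool, with 5 higher and 0 lower in limma at an unadjusted p below 0.05 and a median of 0.19. The smallest p belonged to Snhg1, a host of small nucleolar RNAs (7.02 FPKM in Zeb2+/- and 3.39 FPKM in WT, log2 fold change 0.83, limma adjusted p = 0.0698), and Eef1b2, an exchange factor of elongation factor 1 (141.0 FPKM in Zeb2+/- and 86.4 FPKM in WT, 0.66, limma adjusted p = 0.116). Their libraries, like those of the ribosomal proteins, were highest in Zeb2+/- library 1, at 11.0 FPKM for Snhg1 and 201.8 FPKM for Eef1b2.

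Initiation and ribosome assembly factors lay nearer to the median of all genes. Of 26 translation initiation factors 0 were called by limma or voom, with 4 higher and 1 lower in limma at an unadjusted p below 0.05 and a median of 0.09, and the smallest p belonged to Eif1, which guards the choice of the start codon (156.0 FPKM in Zeb2+/- and 115.3 FPKM in WT, log2 fold change 0.43), and Eif3d (10.9 FPKM in Zeb2+/- and 8.56 FPKM in WT, 0.31). Of 65 ribosome assembly factors 0 were called by limma or voom, with 5 higher and 1 lower in limma at an unadjusted p below 0.05 and a median of 0.04. Their library scores were 0.38, 0.02, -0.31 and 0.11 in Zeb2+/-, against -0.02, 0.02, -0.05 and 0.05 in WT. Ppan averaged 5.99 FPKM in Zeb2+/- and 3.21 FPKM in WT (log2 fold change 0.69, limma adjusted p = 0.114), and Emg1, an rRNA methyltransferase, averaged 13.8 FPKM in Zeb2+/- and 9.40 FPKM in WT (0.48, limma adjusted p = 0.157). Of 37 subunits and factors of RNA polymerase I and III 0 were called by limma or voom, with 6 higher and 2 lower in limma at an unadjusted p below 0.05 and a median of 0.09. Polr2l, a subunit shared by all RNA polymerases, averaged 10.6 FPKM in Zeb2+/- and 5.91 FPKM in WT (0.73, limma adjusted p = 0.0811), and Znrd1, an RNA polymerase I subunit, averaged 21.0 FPKM in Zeb2+/- and 15.2 FPKM in WT (0.44, limma adjusted p = 0.0989).

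Of 23 tested regulators around mTORC1 and LARP1 0 were called by limma or voom, with 1 higher and 1 lower in limma at an unadjusted p below 0.05 and a median of -0.02. Mtor, the kinase itself, stood at 2.69, 5.06, 3.46 and 3.93 FPKM in Zeb2+/-, against 5.76, 6.44, 6.62 and 4.74 FPKM in WT. The groups overlapped, since Zeb2+/- library 2 lay above WT library 4 (log2 fold change -0.54, limma adjusted p = 0.129). Rps6kb2, a kinase of ribosomal protein S6, averaged 8.17 FPKM in Zeb2+/- and 6.44 FPKM in WT (0.29, limma adjusted p = 0.207). Of 23 tested genes of p53 and its targets 1 fell in Zeb2+/- and 0 rose in limma, beside 2.77% and 0.468% of all genes, and 0 were called by voom. The median was -0.10, with 2 higher and 4 lower in limma at an unadjusted p below 0.05. The gene that fell was Trp53inp1, an inducer of apoptosis and autophagy, at 3.92 ± 1.29 FPKM in Zeb2+/- and 8.61 ± 1.70 FPKM in WT (SD, n = 4 each, log2 fold change -0.98, limma adjusted p = 0.0354).

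Pseudogenes and the proteins of the mitochondrial ribosome were measured beside them. Of 59 tested ribosomal protein pseudogenes, out of 290 listed, 1 rose in Zeb2+/- and 0 fell in limma, with a median log2 fold change of 0.27, and 0 were called by voom. It was Rpl36-ps2, at 4.15, 3.98, 4.58 and 4.26 FPKM in Zeb2+/-, against 1.71, 1.60, 1.97 and 2.46 FPKM in WT (log2 fold change 0.85, limma adjusted p = 0.00525). The 4 Zeb2+/- libraries lay close together and above all WT libraries, and the parent Rpl36, named after its value was seen, had a log2 fold change of 0.19. Of 77 tested mitochondrial ribosomal proteins, which are encoded in the nucleus and serve the separate ribosome of that organelle, 1 rose and 0 fell in limma, with 0 called by voom. At an unadjusted p below 0.05, 40 were higher in limma (beside 10.0% of all genes) and 18 with voom (beside 6.40%). In 31 every Zeb2+/- library lay above every WT library (beside 7.65%), and the median log2 fold change was 0.28. The gene that rose was Mrps12, at 33.7, 32.8, 27.2 and 29.5 FPKM in Zeb2+/-, against 16.8, 19.8, 19.2 and 20.8 FPKM in WT (log2 fold change 0.66, limma adjusted p = 0.0190). The library scores of the mitochondrial ribosomal proteins were 0.33, 0.34, 0.16 and 0.24 in Zeb2+/-, against -0.12, 0.03, -0.02 and 0.11 in WT. On the deposited FPKM all 4 Zeb2+/- libraries thus lay above the WT libraries, which did not hold for the cytosolic ribosomal proteins. These scores were not computed with rebuilt reads scaled by their own library sum, so whether the contrast holds on that scale was not tested.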

How the data were processed

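Polyadenylated RNA of duodenum was made into directional libraries with dUTP in the second strand, per the labels' protocols. HISAT2 2.0.5 and featureCounts 1.5.0-p3 with GRCm38 (mm10) are named in the submitters' processing notes. The annotation release, the strand setting and the handling of reads with several matches are absent from those notes and the labels. The deposited values are FPKM per gene, beside the gene length in bases that the authors' file gives. FPKM times length came out as whole reads for 100% of values (tolerance 0.01 read), which gave the rebuilt reads.

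Genotypes were compared by limma 3.58.1 under R 4.3.3 (lmFit and then eBayes with trend and robust, genotype only) on log2(FPKM + 1), over genes with a mean of at least 1 FPKM, with Benjamini-Hochberg adjustment over all of them. Fold changes on this scale understate those of low genes. A library score is the mean over a list of the difference from the WT mean. Marker and pathway lists and the members were chosen with earlier results of these data known. Genes named are the 8 of each subunit with the smallest p, the 3 highest and 3 lowest by level, the stalk, paralogs with parents, untested members, Rpl5 and Rpl11. From each other list up to 4 called genes or the 2 of smallest p are named, apart from marker lists, of which only genes that a result turns on are given. Some members are counted but not reported by name here. The scripts were tested on simulated data. Alternatives were other pseudocounts, filters, scalings and variance models, voom, a replicate block, a length trend, and leaving out libraries.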

Additional observations from a re-analysis of the deposited data

Results flagged for a closer look

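In all, 74 groups of 4 libraries were considered, for 35 named genes and for the read share and library median of the members. Rpl10l, at 0 in every library, could not be flagged. Of the 74, 11 held a library far from the rest by Dixon's criterion, which chance alone meets in about 1 in 20 groups. In 9 of the 11 flagged groups Zeb2+/- library 1 was the high one. It stood at 90.0 FPKM for Rps24, 568.0 for Rps15, 149.8 for Rps20, 176.7 for Rps21, 252.4 for Rplp2, 20.8 for Rpl13a, 86.2 for Rpl36a, 48.4 for Rpl22l1 and 1628 for Rps3a1. The other 3 Zeb2+/- libraries lay at 55.1 to 57.7 FPKM for Rps24, 106.2 to 125.3 FPKM for Rplp2 and 788 to 872 FPKM for Rps3a1. These genes come from the same libraries, so their flags are not independent of one another. The remaining 2 concern paralogs with few reads: Rpl39l stood at 0.281 FPKM in Zeb2+/- library 4 and at 0 in the other 3, and Rpl3l at 0.0378 FPKM in WT library 2 and at 0 in the other 3.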

How the results depend on the processing

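The 395 genes called over the whole table became 157 with a mean of at least 5 FPKM, 257 with rebuilt-total scaling, 170 without pancreatic, haemoglobin and immunoglobulin genes, 1187 with array weights, 202 with voom, and 218 to 487 leaving out 1 library at a time. Called ribosomal protein genes, 0 in the main test, numbered 9 with array weights, 1 without Zeb2+/- replicates 1 and 3, 0 to 2 leaving out 1 library, and 0 in each other alternative. Their median log2 fold change stayed between 0.22 and 0.44. Members higher at an unadjusted p below 0.05, 27 in the main test beside 10.0% of all genes, numbered 2 with TPM (3.35% of all genes, whose median was -0.10), 3 with rebuilt-total scaling (6.92%), 3 without pancreatic, haemoglobin and immunoglobulin genes (6.53%), 5 with voom (6.40%), 6 with quantile normalization (13.1%), 8 without mitochondrial genes (8.90%), 10 with the length trend removed (7.76%), and 10 to 48 leaving out 1 library (6.36% to 11.7%). As a share of the members tested, the counts with TPM, rebuilt-total scaling, quantiles, voom and the removal of pancreatic, haemoglobin and immunoglobulin genes lay below the share of all genes. Zeb2 passed the threshold without trend and robust (-0.58), with array weights (-0.59) and with voom (-1.74). Of the named members, 3 with values near 0 changed sign: Rpl3 with TPM (-0.083), quantiles (-0.019), the length trend (-0.027) and 1 library left out (-0.081 to 0.23), Rpl24 with quantiles (0.050), without mitochondrial genes (0.015) and 1 library left out (-0.10 to 0.070), and Rps4x with the length trend (-0.034) and 1 library left out (-0.036 to 0.30). The cause was not tested. With a replicate block 299 genes and 0 members were called and the median was 0.34. Correlations of same-numbered libraries (0.236, -0.160, 0.327 and -0.189) were not all positive, so the numbers were not taken as pairs. The values of Rpl39l, Rpl3l and Rpl36al rest on few reads, and Rpl36al also overlaps Gm49383 on the same strand.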
